A study of Mus musculus with 16 samples.

Results

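Transcripts of 10 heat shock proteins and co-chaperones were followed in mouse hearts: the HSP70 genes Hspa1a, Hspa1b and Hspa8, the HSP110 gene Hsph1, the HSP90 gene Hsp90aa1, the J-protein genes Dnajb1 and Dnaja1, the small heat shock protein genes Hspb1 and Cryab, and the co-chaperone gene Bag3. They were taken by name from a table of 30153 genes, and each of the 10 matched 1 row. The table held bulk polyadenylated RNA from 16 hearts in 4 groups. All mice were C57/BL6 by label. Aged mice with haplotype I of the human angiotensin type 1 receptor gene (Hap-I) that were given a western diet made up 5 hearts, aged Hap-I mice 4 hearts, adult Hap-I mice given a western diet 4 hearts, and adult C57 mice 3 hearts. The design text lists the adult Hap-I group without a diet, whereas the sample labels give the diet, and the labels were followed. The labels state no promoter for the transgene, no sex, no age in months, no diet for the other groups, and no batch. Genotype, age and diet are not crossed, since no C57 heart was labelled as aged or as on the diet. Hearts are separate animals, and replicate numbers name a heart within its group only.

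Heat shock proteins are molecular chaperones that hold, fold or refold other proteins. HSP70 works in cycles, in which J proteins deliver unfolded clients and trigger ATP hydrolysis, and HSP110 and BAG proteins act as exchange factors that let the client go. HSP90 takes over at late steps of folding. Small heat shock proteins bind unfolding proteins without ATP, and in cardiac muscle they and BAG3 sit at the Z-disc, where BAG3 takes part in clearing damaged sarcomere proteins. Heat, oxidants and misfolded protein activate the transcription factor HSF1, which binds heat shock elements, inverted repeats built on GAA, upstream of the inducible members.

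The promoters of Hspa1a, Hspa1b, Hspb1 and Hsph1 are shown because the first pair were the most variable members between hearts, Hspb1 carried the clearest difference from C57, and Hsph1 held the longest run of such repeats. Each sequence covers 250 bases before and 30 bases after a RefSeq transcription start on GRCm38.p6, read 5′ to 3′ along the gene, with capitals for matches to GAANNTTC or TTCNNGAA, sought on both strands (each motif is its own reverse complement, and matches may overlap).
Hspa1a, chr17:34972127-34972406, minus strand: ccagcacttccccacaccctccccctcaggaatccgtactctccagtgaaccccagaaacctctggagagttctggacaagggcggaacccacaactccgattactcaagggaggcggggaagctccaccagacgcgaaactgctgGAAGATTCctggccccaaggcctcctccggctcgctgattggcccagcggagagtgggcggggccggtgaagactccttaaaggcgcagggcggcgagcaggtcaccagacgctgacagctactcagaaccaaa
Hspa1b, chr17:34959209-34959488, minus strand: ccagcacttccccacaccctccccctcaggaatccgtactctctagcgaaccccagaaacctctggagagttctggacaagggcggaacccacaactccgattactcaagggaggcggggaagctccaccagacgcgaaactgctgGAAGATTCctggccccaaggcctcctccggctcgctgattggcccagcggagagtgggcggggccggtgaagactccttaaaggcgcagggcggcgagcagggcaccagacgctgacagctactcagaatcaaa
Hspb1, chr5:135887669-135887948, plus strand: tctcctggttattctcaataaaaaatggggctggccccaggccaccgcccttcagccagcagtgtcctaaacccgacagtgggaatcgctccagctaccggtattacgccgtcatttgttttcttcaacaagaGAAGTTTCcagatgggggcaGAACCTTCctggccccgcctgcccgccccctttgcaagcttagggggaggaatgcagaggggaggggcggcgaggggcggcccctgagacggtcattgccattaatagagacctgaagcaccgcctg
Hsph1, chr5:149636286-149636565, minus strand: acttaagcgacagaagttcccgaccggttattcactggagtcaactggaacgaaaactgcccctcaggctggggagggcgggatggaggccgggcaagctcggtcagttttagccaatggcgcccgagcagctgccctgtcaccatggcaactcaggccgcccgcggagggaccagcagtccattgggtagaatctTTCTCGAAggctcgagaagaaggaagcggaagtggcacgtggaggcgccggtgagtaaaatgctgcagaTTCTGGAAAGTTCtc
The Hspa1a and Hspa1b stretches differed at 4 of 280 bases and carried the same match, at positions −104 to −97 from the start. Hspb1 had 2 matches, at positions −117 to −110 and −97 to −90. Hsph1 had a match at positions −54 to −47 and, at positions 16 to 28 after the start, a run that matched TTCNNGAANNTTC, 3 repeats in a row. That motif was found in 0.608% of 32544 mouse promoters of 300 bases. GAANNTTCNNGAA is the same motif read on the other strand, and both strands were searched, so its share is the same by construction. Promoters were at hand for 7 of the 10 members, in 11 windows of 300 bases. A match to either 8-base motif was present in 7 of these windows and for 6 of the 7 members, against 15.1% of all 32544 promoters and 11.6% of the 11211 promoters of genes kept for testing. The count of members takes a match in any window of a gene, whereas the shares are per promoter. The windows are not separate observations, since those of Hsph1 overlap and the Hspa1a and Hspa1b stretches are nearly alike. Dnaja1 held a match at positions −124 to −117 of 1 of its 3 starts, Bag3 at positions 43 to 50 after its start, and Dnajb1 held none in either window. A match describes the letters only, and binding was not measured.

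Expression is given as scaled TPM: the deposited TPM, which are corrected for length and so can be set side by side between genes, divided by a size factor for each heart. TPM keep no sequencing depth, so the depth is unknown and errors are SD between hearts. All 10 members were among the 11415 genes that reached 1 TPM in at least 3 hearts, but Hspa1a and Hspa1b did so in exactly 3 hearts, C57 replicates 1 and 3 and aged western-diet replicate 5. The other 8 members reached it in all 16. Reads of some members cannot be placed with certainty, because their transcripts share 31-base words with other genes: 63.8% of the words of Hspa1a with Hspa1b, 38.6% of Hspa8 with the gene Gm15459, 46.7% of Hsp90aa1 with Gm12346 and 52.3% of Hspb1 with Hsp25-ps1. Dnaja1 shared 13.4% of its words with other genes, 11.2% with Gm15542. Hsph1, Cryab and Bag3 shared none, and Dnajb1 shared 0.41%.

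The members spanned a wide range of levels. Hspa8, the constitutive HSP70 that folds new proteins and uncoats clathrin vesicles, averaged 853 ± 173 scaled TPM over the 16 hearts (SD) and ranked 78 of 11415 genes. Hspb1, an ATP-independent holdase also known as HSP25, followed at 161 ± 53.9 and rank 382. Bag3 (68.5 ± 13.6) and the inducible cytosolic HSP90 gene Hsp90aa1 (59.3 ± 19.3) came next, then Cryab, the αB-crystallin of muscle and lens (39.3 ± 6.15), and Dnaja1, a J protein of the cytosol (33.5 ± 10.6). The ranges of these 4 overlapped. Hsph1, the HSP110 exchange factor, averaged 5.58 ± 2.25, and Dnajb1, the J protein that drives HSP70 disaggregation, 4.49 ± 1.40; these neighbours also overlapped. The inducible pair stood lowest, Hspa1a at 0.745 ± 0.612 and Hspa1b at 0.601 ± 0.601, at ranks 11190 and 11340. The inducible pair also varied most. The coefficient of variation was 99.9% for Hspa1b and 82.1% for Hspa1a, beside a median of 18.9% over all genes kept. It lay between 31.3% and 40.3% for Hsph1, Hspb1, Hsp90aa1, Dnaja1 and Dnajb1, and was 20.3% for Hspa8, 19.9% for Bag3 and 15.6% for Cryab.

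**Figure D1:**
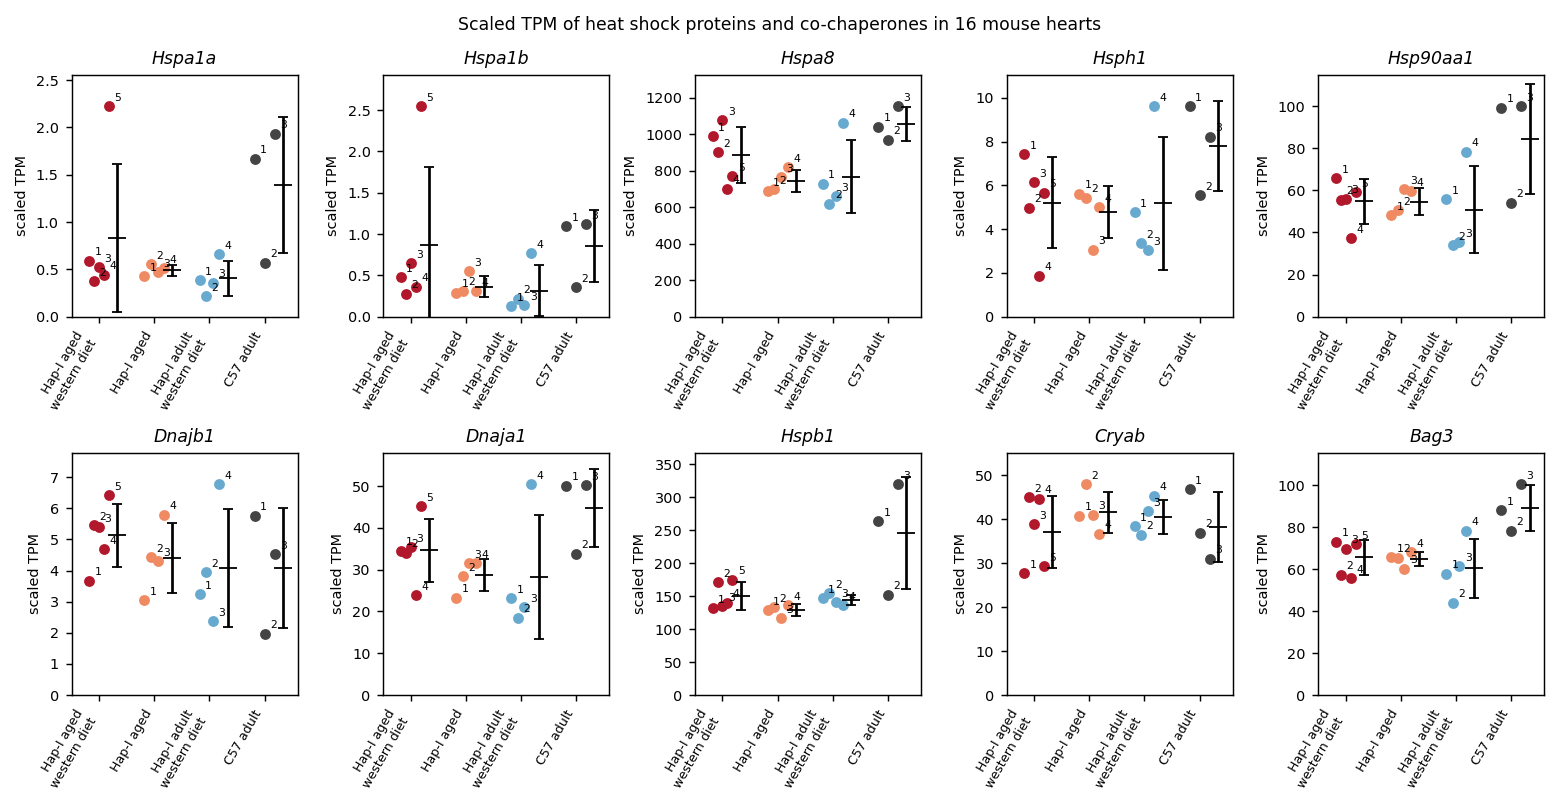
Scaled TPM (vertical axis, linear, from 0) of the 10 members in each of the 16 hearts, by group (horizontal axis), with replicate numbers beside the points; the bar and whiskers are the group mean and SD. Hspb1 reached 263 and 319 in C57 replicates 1 and 3 and stayed between 116 and 175 in the 13 Hap-I hearts, whereas Cryab overlapped in all groups.

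The inducible HSP70 genes were close to the limit of what these libraries show. Hspa1a stood at 0.592, 0.378, 0.520, 0.442 and 2.23 scaled TPM in aged western-diet Hap-I hearts, at 0.425, 0.557, 0.472 and 0.512 in aged Hap-I hearts, at 0.383, 0.218, 0.361 and 0.663 in adult western-diet Hap-I hearts, and at 1.67, 0.572 and 1.93 in C57 hearts. Its highest heart was thus in the aged western-diet group, and its next 2 in C57. Hspa1b stood at 0.475, 0.281, 0.650, 0.364 and 2.55 in aged western-diet Hap-I hearts, at 0.291, 0.315, 0.548 and 0.308 in aged Hap-I hearts, at 0.130, 0.220, 0.142 and 0.769 in adult western-diet Hap-I hearts, and at 1.09, 0.359 and 1.12 in C57 hearts. A few single hearts held the high values of both genes: aged western-diet replicate 5 and C57 replicates 1 and 3, with adult western-diet replicate 4 highest in its own group. Because the split of reads between the 2 copies is uncertain, their sum is the safer value, and it was 4.77 in aged western-diet replicate 5 against 0.659 to 1.17 in the other 4 hearts of that group. The sum was 0.716 to 1.02 in aged Hap-I hearts, 0.437 to 1.43 in adult western-diet Hap-I hearts, and 2.76, 0.931 and 3.05 in C57 hearts. Neither gene passed the test in any comparison.

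Hspb1 was lower in both groups of aged Hap-I hearts than in C57 hearts. Its levels were 131, 171, 134, 139.9 and 175 scaled TPM in aged western-diet Hap-I hearts, 129, 133, 116 and 136 in aged Hap-I hearts, 147, 154, 141 and 136 in adult western-diet Hap-I hearts, and 263, 152 and 319 in C57 hearts. C57 replicate 2 lay inside the range of the aged and adult western-diet hearts, while C57 replicates 1 and 3 lay above every Hap-I heart. In aged Hap-I hearts Hspb1 averaged 129 ± 8.93 against 245 ± 84.9 in C57 hearts (SD), and the groups did not overlap. It fell by 0.86 ± 0.19 (SE) on the log2 scale, a fold of 0.551 with an adjusted p of 0.0113 in limma. In aged western-diet Hap-I hearts it averaged 150.3 ± 20.9 and fell by 0.65 ± 0.18 against C57 (adjusted p = 0.0190 in limma), with overlap. In adult western-diet Hap-I hearts it averaged 144 ± 7.70, a log2 change of −0.69 ± 0.19 against C57 that missed the threshold (adjusted p = 0.0530 in limma) but passed it without C57 replicate 2 (adjusted p = 0.0019). The adjusted p was above 0.05 when C57 replicate 1 or 3 was left out, at 0.0617 and 0.0661 for aged Hap-I hearts (log2 changes between −1.17 and −0.63 over all alternatives) and at 0.0905 and 0.123 for aged western-diet Hap-I hearts. Without scaling both calls were lost (adjusted p of 0.110 in aged and 0.0668 in aged western-diet Hap-I hearts). The call in aged western-diet Hap-I hearts was also lost with quantile normalization (adjusted p = 0.0702), with only the groups compared (0.0886) and with a correction for transcript length (0.0658), all in limma. In these bulk hearts, fewer cells of a type and less RNA per cell cannot be told apart.

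The same C57 hearts differed in the level of atrial marker genes. All 7 atrial markers of the list passed the filter, and their summed level was 87.3 to 199.6 scaled TPM in aged western-diet Hap-I hearts, 97.8 to 5159 in aged Hap-I hearts, 34.4 to 1179 in adult western-diet Hap-I hearts, and 6806, 231 and 4617 in C57 hearts. The defining atrial genes Sln and Mybphl were at or near 0 in aged western-diet replicates 1, 2, 3 and 5, aged Hap-I replicates 2 and 4 and adult western-diet replicates 2 and 3. C57 replicates 1 and 3 were high in both Hspb1 and atrial markers, and C57 replicate 2 was low in both. Aged Hap-I replicate 3, at 5159, had the lowest Hspb1 of all 16 hearts. With the atrial level as a covariate (added after the values were seen), the log2 change of Hspb1 was −0.80 in aged Hap-I hearts (adjusted p = 0.0292 in limma), and that in aged western-diet Hap-I hearts was −0.52 (adjusted p = 0.152). Endothelial markers, 8 of 8 detected, summed to 522 to 808 in aged western-diet, 599 to 704 in aged and 668 to 1008 in adult western-diet Hap-I hearts against 851 to 1085 in C57 hearts. Most of each sum was Fabp4, at 391 to 492 in aged Hap-I and 637 to 834 in C57 hearts. Pecam1 was also lower there (36.2 to 39.1 against 40.8 to 53.2), but Kdr was higher (27.65 to 31.16 against 21.99 to 25.96). The remaining endothelial markers overlapped between these groups, so the sum does not speak for each marker. Fibroblast markers, 8 of 8 detected, summed to 237 to 389 in aged western-diet, 325 to 415 in aged and 276 to 396 in adult western-diet Hap-I hearts against 443 to 504 in C57 hearts. The sum was lower in all Hap-I hearts, and most of it was Dcn, at 156 to 247 in Hap-I and 282 to 296 in C57 hearts. The other fibroblast markers overlapped between Hap-I and C57 hearts. Lum reached 29.9 in adult western-diet Hap-I hearts against 14.8 to 20.4 in C57 hearts. The 4 Y-linked transcripts of the list summed to 0.18 to 0.40 in aged western-diet replicates 1, 2 and 3 and to 0.15 and 0.25 in adult western-diet replicates 2 and 1, and to 18.8 or more in the other 11 hearts. With their presence as a covariate, the Hspb1 change in aged western-diet Hap-I hearts was −0.64 (adjusted p = 0.0614 in limma). Ventricular markers, 12 of 12 detected, summed to 39253 to 46212 in aged western-diet, 42309 to 52526 in aged and 39928 to 48488 in adult western-diet Hap-I hearts against 50271 to 54897 in C57 hearts. The sums of both western-diet groups thus lay below C57, as did Tnnt2 and Tnni3. Ttn went the other way, at 30.3 to 100.6 in Hap-I hearts against 25.3 to 28.5 in C57 hearts. The remaining ventricular markers of the western-diet groups overlapped with C57, so this sum does not speak for each marker either. The part of endothelial, fibroblast and ventricular markers in the Hspb1 and Bag3 results was not tested. Over the 16 hearts Hspb1 had a Spearman rho of −0.64 with the size factor and of −0.68 with the length trend, which is the rank correlation of a library's deviations from the gene means with transcript length (both given as descriptions). The length trend was −0.28 to 0.50 in aged western-diet, 0.06 to 0.47 in aged and −0.46 to 0.25 in adult western-diet Hap-I hearts against −0.33 to −0.11 in C57 hearts.

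Bag3 showed a smaller difference in the same direction. Its levels were 73.2, 57.5, 69.8, 55.7 and 72.0 scaled TPM in aged western-diet Hap-I hearts, 65.6, 65.5, 60.2 and 68.1 in aged Hap-I hearts, 57.8, 44.0, 61.4 and 78.3 in adult western-diet Hap-I hearts, and 88.2, 78.4 and 100.4 in C57 hearts. All 13 Hap-I hearts lay below all 3 C57 hearts, the closest being adult western-diet replicate 4 at 78.3 and C57 replicate 2 at 78.4. Bag3 fell by 0.44 ± 0.15 on the log2 scale in aged western-diet Hap-I hearts against C57 (adjusted p = 0.0493 in limma). This call was lost in 18 of 25 recomputations, with adjusted p-values there of 0.0586 to 0.320. The changes of −0.45 ± 0.16 in aged Hap-I hearts and −0.57 ± 0.16 in adult western-diet Hap-I hearts did not pass (adjusted p of 0.0795 and 0.0572 in limma).

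The genes of the HSP70 and HSP90 core did not pass the test in any comparison with C57 hearts. Hspa8 stood at 989, 902, 1077, 701 and 772 scaled TPM in aged western-diet Hap-I hearts, at 687, 700.1, 763 and 820.0 in aged Hap-I hearts, at 730.0, 619, 661 and 1063 in adult western-diet Hap-I hearts, and at 1041, 969 and 1154 in C57 hearts. The aged Hap-I hearts all lay below the C57 hearts, and the western-diet groups each had at least 1 heart inside the C57 range. Hsp90aa1 stood at 65.8, 55.5, 56.0, 37.3 and 59.1 in aged western-diet Hap-I hearts, at 48.1, 50.5, 60.5 and 59.5 in aged Hap-I hearts, at 55.7, 33.9, 35.5 and 78.3 in adult western-diet Hap-I hearts, and at 99.2, 54.1 and 99.96 in C57 hearts. C57 replicate 2 lay within the range of each Hap-I group. Dnaja1 stood at 34.6, 34.1, 35.4, 23.9 and 45.1 in aged western-diet Hap-I hearts, at 23.3, 28.5, 31.6 and 31.5 in aged Hap-I hearts, at 23.2, 18.6, 21.1 and 50.4 in adult western-diet Hap-I hearts, and at 50.1, 33.9 and 50.2 in C57 hearts. In each of these 3 genes single hearts stood away from their group: adult western-diet replicate 4 lay within or just above the C57 range, aged western-diet replicate 4 was the lowest of its group, and C57 replicate 2 was the lowest of the C57 hearts. Hsph1 had 1.88 to 7.43 in aged western-diet, 3.05 to 5.62 in aged and 3.03 to 9.61 in adult western-diet Hap-I hearts against 5.55 to 9.62 in C57 hearts, with the same 3 hearts at its extremes. Leaving out adult western-diet replicate 4 brought the count of members lower in adult western-diet Hap-I hearts than in C57 hearts to 4 (Hspa8, Hsp90aa1, Dnaja1 and Bag3), where 4.24% of all genes were then called in either direction.

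Dnajb1 and Cryab differed from the rest. Dnajb1 stood at 3.68, 5.46, 5.39, 4.68 and 6.42 scaled TPM in aged western-diet Hap-I hearts, at 3.04, 4.43, 4.30 and 5.80 in aged Hap-I hearts, at 3.25, 3.94, 2.37 and 6.77 in adult western-diet Hap-I hearts, and at 5.76, 1.97 and 4.53 in C57 hearts. The lowest heart of all 16 was a C57 heart, and the highest an adult western-diet heart. Cryab stood at 27.7, 45.1, 38.8, 44.6 and 29.3 in aged western-diet Hap-I hearts, at 40.8, 47.9, 41.0 and 36.7 in aged Hap-I hearts, at 38.4, 36.5, 41.8 and 45.4 in adult western-diet Hap-I hearts, and at 46.9, 36.9 and 31.01 in C57 hearts. All 4 groups overlapped in both genes, and the log2 changes against C57 lay between −0.05 and 0.33. Of the remaining small heat shock protein genes of the wider list (Hspb2, Hspb3, Hspb6, Hspb7 and Hspb8), 0 of 5 passed in any comparison in limma, with medians against C57 of 0.18 in aged western-diet, 0.05 in aged and 0.15 in adult western-diet Hap-I hearts. Among them Hspb7, a sarcomere-associated chaperone, averaged 711 scaled TPM and Hspb6, a phosphorylated smooth and cardiac muscle chaperone, 522 over the 16 hearts, both above Hspb1.

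**Figure D2:**
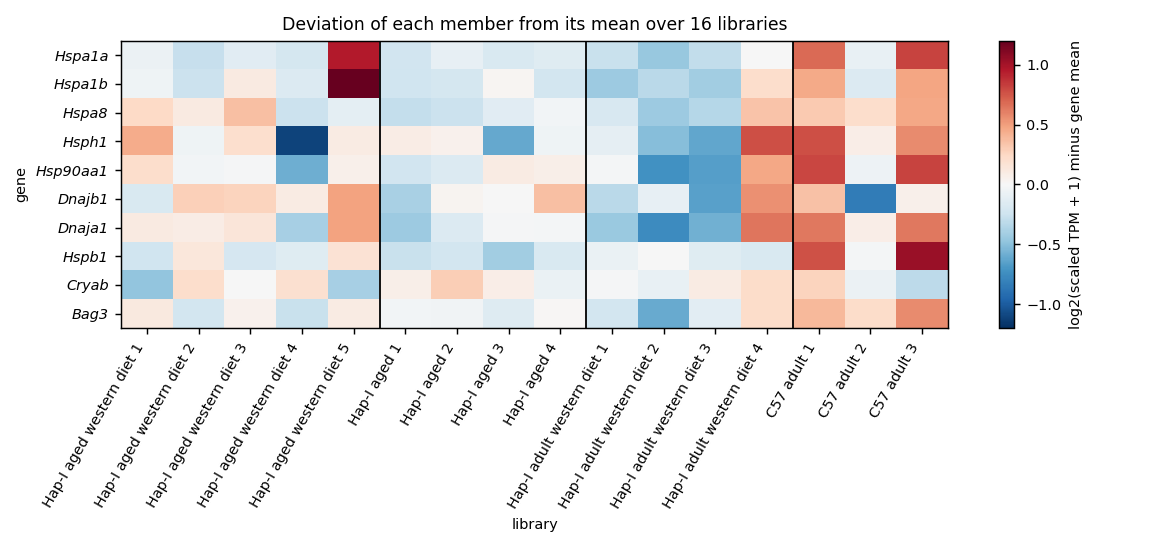
Deviation of each member (rows) from its own mean over the 16 hearts (columns, ordered by group), on the log2(scaled TPM + 1) scale; red is above and blue below the mean. C57 replicates 1 and 3, adult western-diet replicate 4 and aged western-diet replicate 5 are red in most rows. In the Cryab row C57 replicate 1 and adult western-diet replicate 4 are red, and the other 2 of these hearts are blue.

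Taken over the list, 1 of 10 members was lower in aged Hap-I hearts than in C57 hearts, where 4.06% of all genes were called lower, and 11.2% were called in either direction. In aged western-diet Hap-I hearts 2 of 10 were lower than in C57 hearts, against 9.57% of all genes called lower and 21.9% called in either direction. In adult western-diet Hap-I hearts 0 of 10 passed in limma, against 1.5% of all genes called lower and 3.45% in either direction. There 6 members, Hspa1a among them, had an unadjusted p under 0.05 in limma, as did 2330 of all 11415 genes. Against C57, 0 members were called higher, where 12.3% of all genes were in aged western-diet, 7.18% in aged and 1.95% in adult western-diet Hap-I hearts. The median log2 change of the members was −0.39 in aged western-diet, −0.54 in aged and −0.58 in adult western-diet Hap-I hearts against C57, beside medians over all genes of −0.0014, −0.0069 and 0.0078. Groups did not overlap, with the Hap-I hearts lower, for 1 member (Bag3) in aged western-diet hearts (11.2% of all genes), 5 members in aged hearts (Hspa1a, Hspa8, Dnaja1, Hspb1 and Bag3; 16.1% of all genes) and 1 member (Bag3) in adult western-diet hearts (8.2% of all genes). These 3 comparisons share the same 3 C57 hearts, so they are not independent of each other. Hspa1a had passed the filter only through C57 replicates 1 and 3 and aged western-diet replicate 5. Its place among these 5 members, and among the 6 with an unadjusted p under 0.05, thus carries little weight. In the comparison of aged Hap-I with C57 hearts its nearest hearts were almost level, aged Hap-I replicate 2 at 0.557 and C57 replicate 2 at 0.572 scaled TPM.

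**Figure D3:**
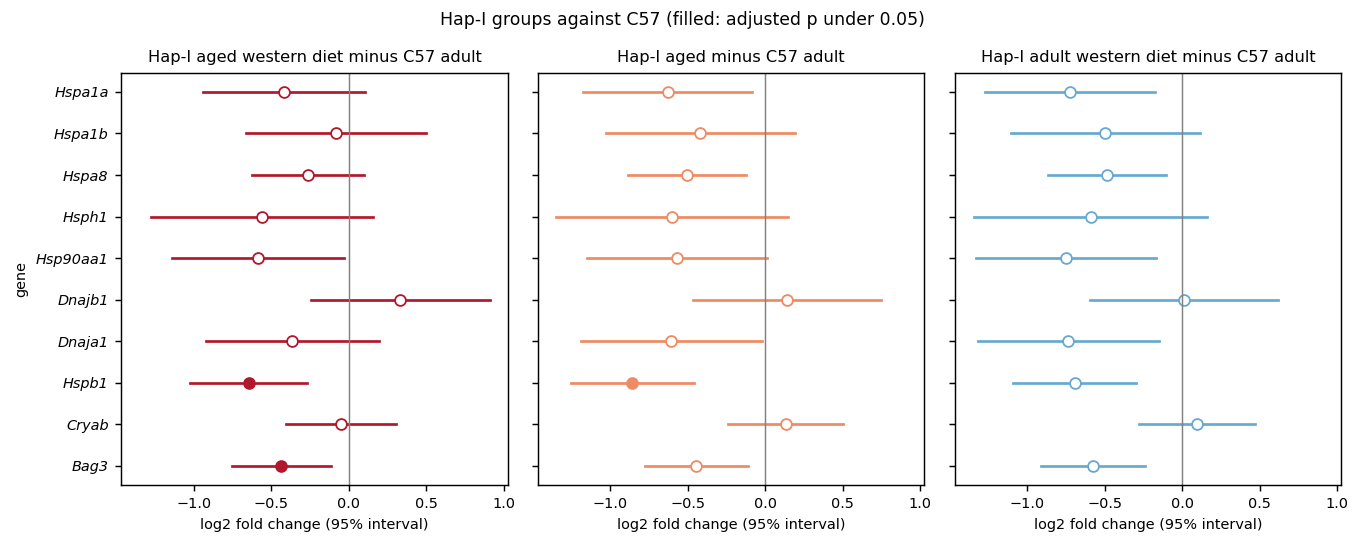
Log2 fold change (horizontal axis, with 95% intervals from limma) of each member in the 3 Hap-I groups, each minus the C57 hearts; filled points have an adjusted p under 0.05. Hspb1 is filled in both aged groups and Bag3 in the aged western-diet group, and Dnajb1 and Cryab lie nearest to or above 0.

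Among the Hap-I groups no member passed the test. For diet in aged hearts (aged western-diet Hap-I against aged Hap-I), 0 of 10 members were called in limma, beside 0.166% of all genes. The member of smallest p was Hspa8, which averaged 888 ± 154 scaled TPM in aged western-diet Hap-I hearts and 743 ± 61.4 in aged Hap-I hearts (log2 change 0.24 ± 0.16, adjusted p = 0.476, 95% interval −0.09 to 0.58). For age on the diet (aged western-diet Hap-I against adult western-diet Hap-I), 0 of 10 were called, beside 2.39% of all genes. The member of smallest p was Hspa1b, at 0.864 ± 0.952 in aged western-diet Hap-I hearts and 0.315 ± 0.305 in adult western-diet Hap-I hearts (0.41 ± 0.25, adjusted p = 0.389 in limma). Dnaja1 was called higher there only when adult western-diet replicate 4 was left out, where 4.2% of all genes were then called. For aged Hap-I against adult western-diet Hap-I hearts, which differ in age and diet at once, 0 of 10 were called, beside 2.14% of all genes. That of smallest p was Hspb1 (log2 change −0.17 ± 0.17, adjusted p = 0.600 in limma). Its groups did not overlap, as in 7.6% of all genes with the first group lower, but the nearest hearts of the 2 groups both round to 136 scaled TPM. In these 3 comparisons 0 members had an unadjusted p under 0.05 in limma, whereas 1817, 2249 and 2459 of all 11415 genes did. The interval of Hspa8 for diet leaves room for a rise of up to 0.58 on the log2 scale. For age on the diet, the 95% interval of Dnaja1 ran from −0.14 to 0.88. The missed threshold thus does not show that diet or age leaves these genes alike.

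In 2 of the groups a single heart stood at one end for 9 of 10 members. Adult western-diet replicate 4 was the highest of its group for 9 of 10 members, all but Hspb1, and C57 replicate 2 was the lowest of its group for 9 of 10, all but Cryab. Aged western-diet replicate 4 was the lowest of its group for 5 members, Hspa8, Hsph1, Hsp90aa1, Dnaja1 and Bag3, while replicate 5 was the highest for another 5, Hspa1a, Hspa1b, Dnajb1, Dnaja1 and Hspb1. Aged Hap-I replicate 1 was the lowest of its group for 6 members. The immediate early genes, transcripts that rise within minutes of cell stimulation and mark handling, summed to 49.1 to 118 in aged western-diet, 55.6 to 66.6 in aged and 68.8 to 110.0 in adult western-diet Hap-I hearts against 48.9 to 69.9 in C57 hearts; their part in the pattern was not tested.

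Correlation between the members over the 16 hearts was computed for all 45 pairs on the log2(scaled TPM + 1) scale. The pair of highest r was Hspa1a with Hspa1b (Pearson r = 0.91, permutation p = 1e-05, adjusted 0.000225, the smallest that 100000 permutations can give; Spearman rho = 0.89, permutation p = 3e-05, adjusted 0.00045; r = 0.83 without aged western-diet replicate 5 and C57 replicate 3). This value is uncertain, since the 2 genes share reads. Hspa1b also ran with Dnaja1 (r = 0.77, permutation p = 0.00013; rho = 0.86, p = 6e-05; adjusted p over the 45 pairs of 0.000585 and 0.00045; r = 0.86 without the same 2 hearts). With Hsp90aa1, Dnajb1 and Bag3 its r was 0.57, 0.57 and 0.58 (permutation p of 0.0224, 0.0209 and 0.0239; adjusted 0.0467 each), and rho was 0.72, 0.57 and 0.70 (permutation p of 0.00226, 0.0219 and 0.0036; adjusted 0.00625, 0.0429 and 0.00853). With Hspa8, Hsph1 and Hspb1 its r was 0.43, 0.46 and 0.50 (permutation p of 0.0918, 0.075 and 0.0553; adjusted 0.133, 0.116 and 0.0957), and rho was 0.69, 0.68 and 0.18 (permutation p of 0.00383, 0.0055 and 0.511; adjusted 0.00862, 0.0118 and 0.622). Without the same 2 hearts r was 0.75 with Hspa8, 0.61 with Hsph1, 0.79 with Hsp90aa1, 0.58 with Dnajb1, 0.43 with Hspb1 and 0.69 with Bag3. On deviations from the group means, Hspa1b had r of 0.93 with Hspa1a, 0.70 with Dnaja1 and 0.61 with Dnajb1 (permutation p of 0.00464, 0.00406 and 0.00846; adjusted 0.0298, 0.0298 and 0.0387). There its r of 0.52 with Hsp90aa1 and 0.52 with Bag3 did not pass (permutation p of 0.0854 and 0.0570; adjusted 0.182 and 0.128). The pair of lowest r was Hspa1b with Cryab (r = −0.39, permutation p = 0.129, adjusted 0.176; rho = −0.10, permutation p = 0.705), and it rested on those 2 hearts, since r was 0.21 without them.

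Over all pairs, 37 of 45 correlations were positive with a median r of 0.55, and 23 had an adjusted p under 0.05 by Pearson and 23 by Spearman. On deviations from the group means, which remove differences between groups, 36 were positive with a median of 0.52, and 14 passed by Pearson and 5 by Spearman. The 10 pairs among Hspa8, Hsph1, Hsp90aa1, Dnaja1 and Bag3, a set picked after the values were seen, had r between 0.76 and 0.89, and between 0.73 and 0.89 on deviations from the group means. On these deviations 8 of the 10 pairs passed by Pearson, and the highest adjusted permutation p was 0.0696. Cryab had r between −0.39 and 0.09 with the other 9 members. The share of other gene pairs past the threshold was not computed, so these counts are not shown to be particular to the members. Spearman rho with the size factor was 0.59 for Hsp90aa1, 0.49 for Hspa8, 0.44 for Hsph1, 0.42 for Bag3 and 0.40 for Dnaja1. The part of the size factor in these correlations was not tested.

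**Figure D4:**
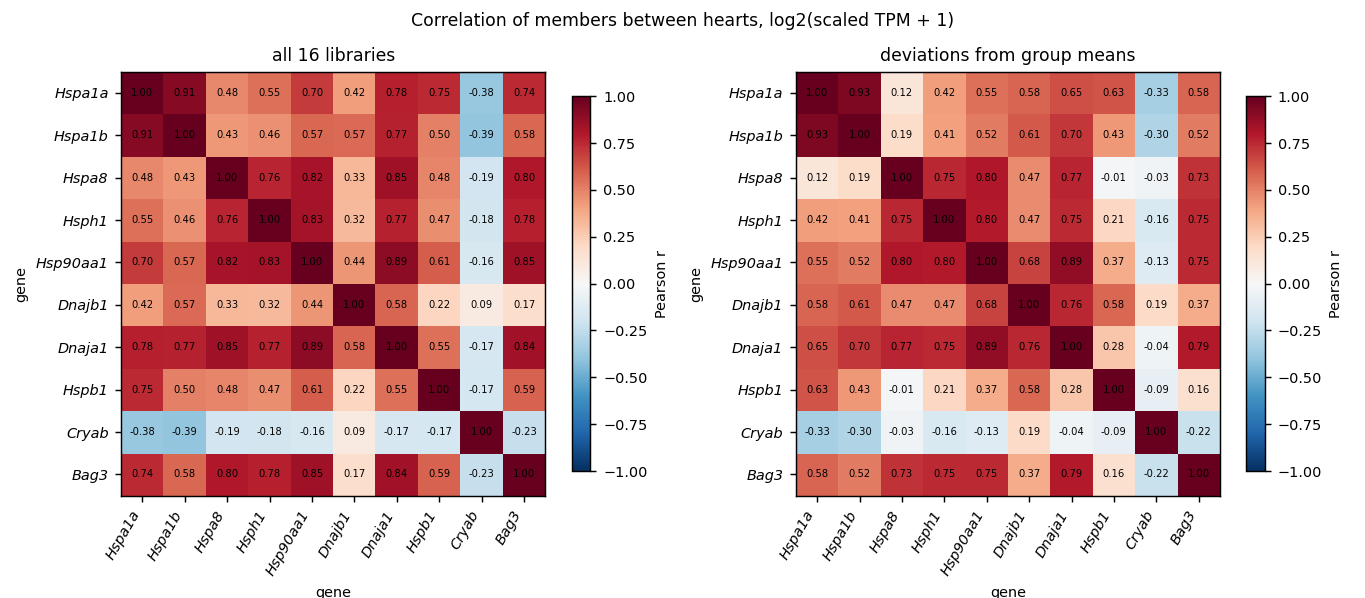
Pearson r between members (rows and columns) of log2(scaled TPM + 1), over all 16 hearts on the left and on deviations from group means on the right. The block of Hspa8, Hsph1, Hsp90aa1, Dnaja1 and Bag3 lies at 0.73 or above in both, and the Cryab row lies near or below 0.

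Beyond the members, the 5 genes of at least 5 scaled TPM whose level ranked most like the mean of the members' centred values over the 16 hearts, out of 6034 genes, were P4ha1, a prolyl hydroxylase of collagen (Spearman rho 0.89), Dnajc3, a J protein of the endoplasmic reticulum (0.85), the endothelin receptor gene Ednra (0.84), the calpain gene Capn2 (0.82) and the transcription factor gene Klf4 (0.81). Among the genes most like Hspa1b alone were Xdh, which encodes xanthine oxidoreductase (0.83), the cytoskeletal gene Epb41l2 (0.83), the interferon-responsive gene Gbp2 (0.83), and Tmod3, which encodes an actin-capping tropomodulin (0.82). These are the top of a ranking and carry no test.

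The wider chaperone network was read from a list of 62 genes, of which 60 were tested; Hspa2 was below the filter and Hspa14 was not analysed here. Against C57 hearts, 15 of 60 were called lower and 2 higher in aged western-diet Hap-I hearts, 7 lower and 2 higher in aged Hap-I hearts, and 3 lower and 0 higher in adult western-diet Hap-I hearts, with median log2 changes of −0.20, −0.14 and −0.15. The shares called of all genes were those given above, 9.57%, 4.06% and 1.5% lower and 12.3%, 7.18% and 1.95% higher. The chaperonins, ring complexes that fold actin, tubulin and other proteins in a closed chamber, had 6 of 10 genes called lower in aged western-diet, 2 of 10 in aged and 1 of 10 in adult western-diet Hap-I hearts. Cct3, a subunit of the cytosolic ring, averaged 54.7 ± 7.97 scaled TPM in aged western-diet, 62.9 ± 3.44 in aged and 63.0 ± 5.95 in adult western-diet Hap-I hearts against 92.5 ± 7.56 in C57 hearts, and fell by 0.75 ± 0.11, 0.55 ± 0.12 and 0.55 ± 0.12 on the log2 scale (adjusted p of 0.000556, 0.0103 and 0.0195 in limma). Its partner subunit Cct4 averaged 47.9 ± 1.46 in aged western-diet and 48.1 ± 1.97 in aged Hap-I hearts against 65.0 ± 1.27 in C57 hearts, and fell by 0.43 ± 0.08 in both (adjusted p of 0.0017 and 0.0058 in limma).

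Of the 12 J proteins, 1 was called higher and 4 lower in aged western-diet, 1 higher and 1 lower in aged, and 0 higher and 1 lower in adult western-diet Hap-I hearts against C57. Beside these class counts, 9.57%, 4.06% and 1.5% of all genes were called lower in this order of groups, and 12.3%, 7.18% and 1.95% higher. Of the 20 HSP70 and HSP90 cofactors, 4, 4 and 1 were called lower in the same order of groups, and 0 higher. Of the 7 relatives of HSP70 and HSP110, 1, 1 and 0 were called higher and 0 lower. Of the 2 relatives of HSP90, 1, 0 and 0 were called lower and 0 higher. Dnajb11, a J protein of the endoplasmic reticulum, averaged 17.1 ± 1.56 scaled TPM in aged western-diet and 19.7 ± 2.18 in adult western-diet Hap-I hearts against 28.3 ± 2.02 in C57 hearts, and fell by 0.70 ± 0.10 and 0.51 ± 0.10 (adjusted p of 0.000426 and 0.0155 in limma). Dnajc5, a J protein of secretory vesicles, averaged 14.4 ± 1.51 in aged western-diet Hap-I hearts against 9.61 ± 0.27 in C57 hearts, and rose by 0.53 ± 0.10 (adjusted p = 0.0019 in limma). Ptges3, the HSP90 co-chaperone p23, averaged 22.04 ± 1.16 in aged Hap-I hearts, 30.1 ± 3.32 in adult western-diet Hap-I hearts and 34.1 ± 1.54 in C57 hearts. It fell in aged Hap-I hearts by 0.43 ± 0.10 against adult western-diet Hap-I hearts and by 0.61 ± 0.10 against C57 hearts (adjusted p of 0.0345 and 0.0038 in limma). Hspa12a, a distant HSP70 relative, averaged 5.18 ± 0.28 in aged Hap-I hearts, 3.50 ± 0.72 in adult western-diet Hap-I hearts and 3.22 ± 0.63 in C57 hearts, and rose in aged Hap-I hearts by 0.47 ± 0.11 and 0.56 ± 0.12 against these groups (adjusted p of 0.0424 and 0.0104 in limma).

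Fkbp5, an HSP90-bound immunophilin whose gene is a known target of the glucocorticoid receptor, was the list's single call between aged and adult western-diet Hap-I hearts. It averaged 6.23 ± 1.85 scaled TPM in aged western-diet and 2.67 ± 0.95 in adult western-diet Hap-I hearts, and rose by 0.97 ± 0.18 in the aged hearts (adjusted p = 0.0189 in limma), with overlap. Against C57 hearts (5.71 ± 0.77) it fell by 0.90 ± 0.21 in adult western-diet Hap-I hearts (adjusted p = 0.0286 in limma). The clock genes of the marker list, 9 of 9 detected, summed to 80.6 to 101 in aged western-diet, 93.0 to 111 in aged and 58.0 to 67.1 in adult western-diet Hap-I hearts. In C57 hearts they summed to 115 to 129. Arntl and Npas2 of this list went against the sum. Arntl stood at 3.39 to 6.08 in adult western-diet Hap-I and 0.18 to 0.68 in C57 hearts, and Npas2 at 0.91 to 1.33 and 0.09 to 0.36. The part of the clock genes in the Fkbp5 result and in the member comparisons with C57 was not tested. Between aged western-diet and aged Hap-I hearts 0 of 60 genes of the list were called in limma. Hsf1, named after its values were seen, averaged 2.02 ± 0.96 in aged western-diet, 0.65 ± 0.56 in aged and 1.40 ± 0.97 in adult western-diet Hap-I hearts against 2.19 ± 0.67 in C57 hearts, and 0 of the 4 HSF factors of the list passed in any comparison.

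**Figure D5:**
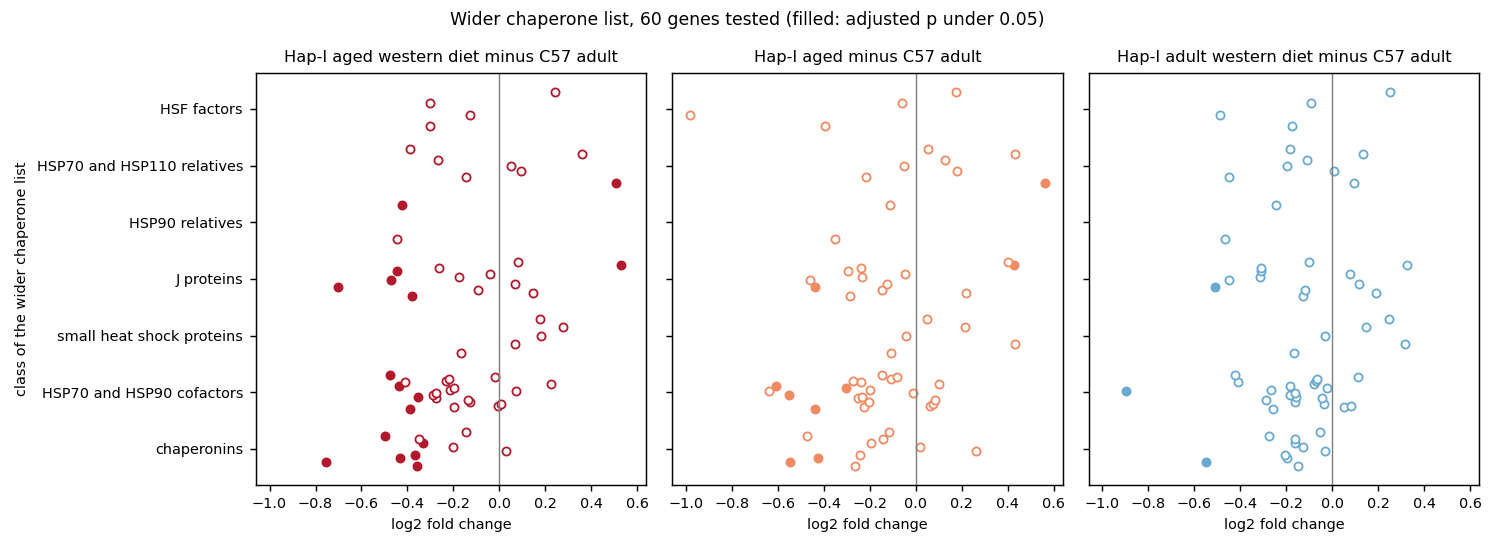
Log2 fold change (horizontal axis) of the 60 tested genes of the wider chaperone list, by class (vertical axis), in the 3 Hap-I groups, each minus the C57 hearts; filled points have an adjusted p under 0.05. In the aged western-diet group 15 filled points lie left of 0 and 2 right of it, and the small heat shock proteins hold none.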

How the data were processed

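Heart RNA of 16 mice had been extracted with a column kit and made into stranded libraries after polyA pull-down, per the labels' protocols. The authors deposited 1 table of TPM, with a row per gene and a column per heart. The submitters' processing notes name kallisto, DESeq2 and GRCm38 without versions. kallisto divides reads that match several transcripts between them by an estimate, and TPM rescale each library to a fixed total, so a large transcript class lowers all others.

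Members were matched by symbol (29732 of 30153 rows had one), with gene identifiers and transcripts from GENCODE vM21 (GRCm38) and promoters from RefSeq (GRCm38.p6). Genes at 1 TPM or more in at least 3 libraries were kept, and each library was scaled by a median-of-ratios size factor over 11177 of these (0.678 to 1.231). A limma 3.58.1 model (R 4.3.3) with a variance trend and a mean per group was fitted to log2(scaled TPM + 1) of all 16 libraries, and 6 two-sided contrasts were adjusted by Benjamini-Hochberg over 11415 genes. Called means an adjusted p below 0.05. Changes on this scale understate those of low genes such as Hspa1a and Hspa1b. Correlations were tested with 100000 two-sided permutations in Python 3.11.15 with numpy 2.4.6, adjusted over the 45 pairs. The scripts were tested on simulated data. Alternatives were no scaling, quantile normalization, another pseudocount, no or a stricter filter, only the groups compared, a covariate for Y-linked transcripts, a length correction, leaving out each library, and, added after the values were seen, a covariate for atrial markers. Beyond the members, the text names called genes of the wider list, up to 4 per comparison by smallest p, the 5 genes most like the members or Hspa1b (1 of these is not reported here), and the genes it says were named after their values were seen. The members and gene lists were chosen with earlier results of these data known.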

Additional observations from a re-analysis of the deposited data

Results flagged for a closer look

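In 30 groups of 4 or 5 hearts (10 members in the 3 Hap-I groups), a single heart stood far from the rest of its group in 5. For normally distributed values chance gives about 1 in 20 groups. The members correlate between hearts and were taken on the linear scale, so the 5 cannot be read as an excess over chance. Aged western-diet replicate 5 stood apart for both inducible HSP70 genes, with 2.23 scaled TPM for Hspa1a and 2.55 for Hspa1b; the gap to its nearest neighbour made up 0.884 and 0.837 of the group's range. Adult western-diet replicate 4 stood apart for Hspa1b, at 0.769, and for Dnaja1, at 50.4, with gaps of 0.860 and 0.853 of the range. Aged Hap-I replicate 3 stood apart for Hspa1b, at 0.548, with a gap of 0.904 of the range, but all 4 hearts of that group were below 1 TPM. The Hspa1a and Hspa1b values share reads and are not separate observations.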

How the results depend on the processing

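Against C57 hearts, the count of 1 called member in aged Hap-I hearts became 0 without scaling (1.97% of all genes called, against 11.2%) and 4 with only the groups compared (21.3%), and ran from 0 to 4 when single libraries were left out, with 0 without C57 replicate 1 or 3 (3.43% and 3.26%) and 4 without adult western-diet replicate 4 (13%). In aged western-diet Hap-I hearts the count of 2 (21.9% of all genes) became 0 without scaling (5.38%), with quantile normalization (19%), with only the groups compared (12.1%), with the Y-linked covariate (12.2%), with the length correction (19.4%) and with the atrial covariate (8.23%), and 1 with no filter (9.72%); it ran from 0 to 3 without single libraries, with 0 without C57 replicate 1 or 3 (12% and 11%). In adult western-diet Hap-I hearts the count of 0 (3.45% of all genes) became 1 (Hspb1) with a filter of 5 TPM (4.18%) or the length correction (5.28%), and ran from 0 to 4 without single libraries, with 4 without adult western-diet replicate 4 (4.24%) and 2 without aged western-diet replicate 5 (5.04%) or C57 replicate 2 (3.71%). Between aged and adult western-diet Hap-I hearts it ran from 0 to 1 (Dnaja1, without adult western-diet replicate 4, 4.2% of all genes). It was 0 under every alternative run for aged western-diet against aged and for aged against adult western-diet Hap-I hearts. Where nothing above gives it, the cause was not tested.

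Of 174 recomputed fold changes of printed members, 139 kept their direction and side of the threshold, 29 lost the call, 4 gained it (Hspb1 in adult western-diet Hap-I hearts against C57) and 2 changed sign, neither past the threshold: Hspb1 in aged against adult western-diet Hap-I hearts was 0.18 without scaling and 0.0108 with the length correction. Of 350 for the wider list, 282 were kept and 68 lost the call. Without scaling, the wider list's called genes in aged Hap-I, aged western-diet Hap-I and adult western-diet Hap-I hearts against C57 numbered 0, 2 and 0, where 1.97%, 5.38% and 1.03% of all genes were called. With the atrial covariate they numbered 8, 7 and 0, where 7.87%, 8.23% and 1.03% were called. The median of all genes moved without scaling by −0.16, 0.27 and 0.13 in aged western-diet against aged, aged against adult western-diet and aged against C57 hearts, and the members' medians were then 0.02, 0.35 and −0.39. Pairs of members past the threshold numbered 14 on deviations from group means, 30 without scaling and 25 with quantile normalization, and the correlation of Hspa1b with Cryab was 0.21 without the 2 farthest libraries.

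No paired analysis was possible because the labels give no replicate numbers. Depth is unknown in TPM, and at under 3 TPM the values of Hspa1a and Hspa1b have an unknown counting error. With 3 to 5 hearts a group, and genotype, age and diet not crossed, a missed threshold does not show that groups were alike.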
